A study of Homo sapiens with 48 samples.

Results

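The genes described here encode the proteins of the cytosolic ribosome. They were taken by symbol: RPL or RPS followed by digits with an optional final A or X, together with RPLP0, RPLP1, RPLP2 and RPSA. The rule found 77 of the 27978 gene symbols in the table, 46 of the large subunit and 31 of the small subunit. Of these, 75 had enough counts to be tested among 15789 tested genes. RPL21, with 0 to 1 counts per library, and RPS18, with 0 to 11, did not pass. Ribosomal proteins that carry other symbols, such as FAU and RACK1, and the paralogs with an added letter L were not members and are given as lists of their own.

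The ribosome joins these proteins to ribosomal RNA in the nucleolus, and a growing cell spends a large part of its RNA output on them. Most of their mRNAs begin with a C followed by further pyrimidines, the 5′ terminal oligopyrimidine (TOP) tract, through which mTORC1 and the RNA-binding protein LARP1 set how strongly they are translated and how stable they are. Growth factor receptors such as EGFR signal to mTORC1 and to MYC, a transcription factor that drives ribosome synthesis, so the ribosomal protein genes are often read beside the growth state of a tumour cell.

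RNA was sequenced from H1975, an established human non-small cell lung cancer line with a mutated EGFR gene, in 48 libraries of 16 groups with 3 libraries each. Single agents, each for 24 h, were gefitinib, an inhibitor of the EGFR kinase, at 50 and 75 µM; CKI, compound kushen injection, at 1 and 2 mg/mL; and YFSJ, a preparation named in the labels by these letters alone, at 2.5 and 5 mg/mL. Each dose of CKI or YFSJ was also paired with each gefitinib dose, which gave 8 groups with 2 agents. Untreated cells at 24 h were the reference for the treated groups, and untreated cells at 0 h were the reference for those at 24 h. The pairs address whether CKI or YFSJ alters the response to gefitinib. All groups are the same cell line, and no vehicle group is among them. The labels call the libraries of a group biological replicates without saying what was repeated, so p-values measure the spread between these libraries.

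The totals ran from 16428398 to 26264162 counts per library, and a count of 3, taken as the floor, was 0.183 CPM (counts scaled to a fixed library total) in the smallest library. The catalogue number in the labels is that of MCF-7, a breast cancer line. Of 5 lung markers 2 had a median of at least 1 CPM, NKX2-1, a lung lineage factor, at 44.7 CPM and NAPSA at 1.93 CPM, while SFTPB was at 0.0431 CPM and SFTPC and SCGB1A1 were at 0. Of 5 breast markers 0 reached 1 CPM, with GATA3 the highest at 0.681 CPM. Summed, the lung markers had 24.7 to 80.1 CPM and the breast markers 0.821 to 5.68 CPM over the libraries without the liver transcripts described next. In 10 libraries transcripts of liver-secreted proteins were present, with 2581 to 3557 counts of ALB (albumin) against 0 to 8 in the other 38 libraries. They were all 3 libraries of 2.5 mg/mL YFSJ, all 3 in which 75 µM gefitinib was paired with 2 mg/mL CKI, libraries 2 and 3 of 75 µM gefitinib paired with 1 mg/mL CKI, and libraries 1 and 3 of 50 µM gefitinib paired with 2 mg/mL CKI. Over the 15 liver markers the summed level was 259 to 352 CPM in these libraries and 44.6 to 96.8 CPM in the others. Only 1 of the 15, SERPINA1, had a median of at least 1 CPM over all libraries, at 67.3 CPM. Ribosomal protein genes took 6.97% to 8.23% of counts in the 10 libraries and 6.24% to 9.18% in the others. At 0 h, libraries 1 and 2 had 1.22% and 1.69% of their counts in mitochondrial RNR2, the large mitochondrial ribosomal RNA, against 0.457% in library 3. A further library unlike its group was library 2 of 75 µM gefitinib paired with 2.5 mg/mL YFSJ: it had 2.18% in RNR2, against 0.811% and 0.957% in libraries 1 and 3 of that group, and differed from them by a chi-square per gene of 44 and 45.5, while those differed from each other by 4.28. The part of any of these in the results was not tested except where a value without these libraries is given.

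Start sites were available for 62 of the 77 genes in the RefSeq annotation of GRCh38.p14. In 46 of the 62 genes (74.2%) at least 1 annotated start opened a run of 5 or more pyrimidines that began with C on the gene's own strand, against 1404 of 27305 genes of that annotation (5.1%). The following windows hold the 15 bases before and the 15 bases from the annotated start, for genes whose levels are described below. Capitals mark the pyrimidine run that begins with C at the start, and a window without capitals has none there. RPL13A, RPL24, RPS14 and RPLP1 are shown as genes with a tract, and RPL3, RPS26, RPL6 and RPS28 as genes with a run of 4 bases or none at the annotated start.
RPL13A, chr19:49487593-49487622, plus strand: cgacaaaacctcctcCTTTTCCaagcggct
RPL24, chr3:101686704-101686733, minus strand: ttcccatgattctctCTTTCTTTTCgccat
RPS14, chr5:150449725-150449754, minus strand: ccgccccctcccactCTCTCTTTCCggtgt
RPLP1, chr15:69452803-69452832, plus strand: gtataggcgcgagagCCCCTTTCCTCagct
RPL3, chr22:39319609-39319638, minus strand: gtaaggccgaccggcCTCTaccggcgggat
RPS26, chr12:56041903-56041932, plus strand: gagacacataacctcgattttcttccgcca
RPL6, chr12:112411428-112411457, minus strand: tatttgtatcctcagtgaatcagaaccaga
RPS28, chr19:8321481-8321510, plus strand: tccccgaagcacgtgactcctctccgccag
The lack of a run describes these letters at the annotated start and no other start. RPL13A and RPL24 both hold a tract, and in cells given gefitinib they moved in opposite directions, as described below. Both are named because their changes were among the largest called, and the part of the tract in them was not tested.

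The 77 genes lay at very different levels. In 70 of them every library had over 1000 counts. RPS2, a small-subunit protein near the mRNA entry channel, had the highest median, 5190 CPM. RPL13A, at a median of 55.6 CPM, was the lowest of the genes with over 200 counts in some library, and RPS27A, at 83.5 CPM, the next. These levels are not divided by length. RPL17, RPL36A and RPS10 were among the genes with under 200 counts in every library, as were the untested RPL21 and RPS18, and their values carry large counting errors. Ribosomal protein genes have many near-identical processed copies elsewhere in the genome, and the reads of a gene and its copies cannot be told apart with certainty, so levels of single genes are uncertain.

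Added together, the 77 genes took a smaller share of the counts in every library with CKI or YFSJ alone than in every untreated library at 24 h. The share was 7.65% ± 0.37 with 1 mg/mL CKI and 7.7% ± 0.26 with 2 mg/mL CKI, and 7.41% ± 0.41 with 2.5 mg/mL YFSJ and 7.45% ± 0.21 with 5 mg/mL YFSJ, against 8.67%, 8.53% and 8.48% in untreated cells, a mean of 8.56% ± 0.097 (SD, n = 3, as for all groups). With gefitinib the share was 8.44% ± 0.24 at 50 µM, which overlapped the untreated libraries, and 8.33% ± 0.24 at 75 µM, where the highest library met the lowest untreated one at 8.48%. The pairs of 75 µM gefitinib with 2.5 and 5 mg/mL YFSJ stood at 8.5% ± 0.42 and 8.66% ± 0.49; in the first the library that stood apart had 8.86%, and the others 8.04% and 8.61%. Untreated cells at 0 h had 6.24%, 7.83% and 7.61%, of which library 1 was the lowest of all 48. These shares were not tested. A lower share can mean less of these mRNAs per cell or more of the other RNAs, which cannot be told apart in bulk RNA.

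**Figure D1:**
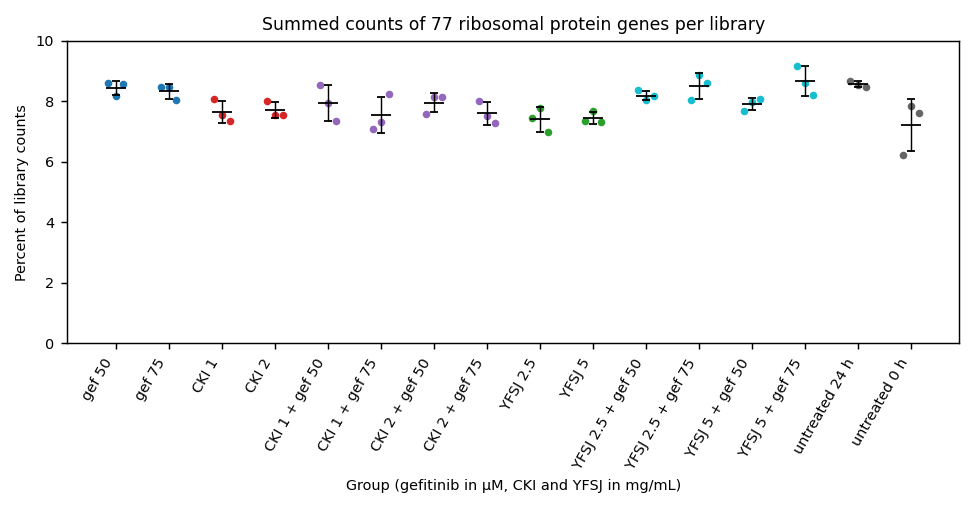
Percent of each library's counts that fell on the 77 ribosomal protein genes, by group (points are libraries, the bar and whiskers the mean and SD of 3 libraries). The 3 untreated libraries at 24 h lie between 8.48% and 8.67%, above every library with CKI or YFSJ alone.

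Each comparison was tested with edgeR's quasi-likelihood test over all 15789 genes, and a gene was called at a Benjamini-Hochberg adjusted p under 0.05. Untreated cells at 24 h, set against 0 h, show how these genes stood in the reference. At 24 h, 27 of the 75 tested genes were higher and 0 were lower, against 10.8% of all genes called higher and 14.4% called lower, with a median change of 0.20 on the log2 scale. DESeq2 called 27 higher and 1 lower. The leading rises were in RPS26, which lines the mRNA exit channel of the small subunit (0.57 ± 0.15, log2 change and SE, adjusted p = 0.00612), RPS21 (0.55 ± 0.14, adjusted p = 0.00461), RPL12 and RPS28 (both 0.54 ± 0.12) and RPLP2 (0.51 ± 0.12), a protein of the stalk that receives translation factors. RPLP1, its partner in the stalk, had 1300, 1240 and 1220 CPM at 24 h, against 667, 931 and 1110 CPM at 0 h. The groups did not overlap, and library 1 at 0 h was far below the other libraries. RPLP0, the base of the stalk, had a change of -0.08 (adjusted p = 0.519). The calls depended on library 1 at 0 h: without it 1 gene was called higher, and without library 2 at 0 h 34 were. In a fit of these 6 libraries alone 0 were called higher. That fit still holds library 1, so it cannot show what rested on that library. After a correction for transcript length 17 genes were higher and 8 lower, with a median of 0.02.

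With gefitinib at both doses more of these genes were called lower than higher, most by a little, and the rest were not called. At 50 µM, 33 of 75 genes fell and 2 rose, with a median change of -0.21; of all genes 26.8% were called lower and 27.6% higher. At 75 µM, 34 fell and 2 rose, again with a median of -0.21, beside 27.1% and 27.6% of all genes. The median of all genes was 0.03 at 50 µM and 0.02 at 75 µM. In 75 µM against 50 µM, 0 of 75 genes were called by edgeR, 0 had an unadjusted p under 0.05, and 0.0317% of all genes were called. With scaling to library totals, which moved the median of all genes to 0.13 and 0.12, 13 genes fell and 8 rose at 50 µM, and 14 fell and 8 rose at 75 µM. The shares of all genes above are from the main fit, and those under this scaling are not given here. Whether the falls exceed the share of all genes under this scaling cannot be read from these counts. RNR2 took 0.655% to 0.868% of counts at 50 µM and 0.674% to 0.886% at 75 µM, against 0.464% to 0.582% in untreated cells, and its part in the changes was not tested. Without library 2 of 50 µM 21 genes were lower, and without library 3 of 75 µM 19.

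RPS26 had the largest fall among the well-counted genes. Its level was 198, 168 and 169 CPM at 50 µM and 191, 186 and 184 CPM at 75 µM, against 357, 406 and 406 CPM in untreated cells at 24 h. Every gefitinib library lay below every untreated one, at about the same level in both dose groups. The log2 change was -1.13 ± 0.15 at 50 µM (adjusted p = 5.55e-08) and -1.06 ± 0.15 at 75 µM (adjusted p = 1.93e-07). Further falls at 75 µM were in RPS15A (-0.50 ± 0.13), RPL24, a protein of a bridge between the subunits (-0.49 ± 0.10, adjusted p = 2.86e-05), RPL36 (-0.47 ± 0.12) and RPS27A, which is made as a fusion with ubiquitin (-0.45 ± 0.14, adjusted p = 0.00606). At 50 µM RPS27A fell by 0.53 (SE 0.14, adjusted p = 0.00119). RPL17, RPS10 and RPL36A also fell at 50 µM, by 1.22, 1.18 and 0.87 on the log2 scale, from levels of 1.54, 1.19 and 4.06 CPM in untreated cells.

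RPL13A and RPL3 went the other way. RPL13A, a large-subunit protein that is also known outside the ribosome as a repressor of inflammatory mRNAs, had 88.7, 80.3 and 100 CPM at 50 µM and 88, 80.6 and 81.9 CPM at 75 µM, against 54.5, 59.4 and 57.2 CPM in untreated cells. All 6 gefitinib libraries were above all 3 untreated ones. The log2 change was 0.66 ± 0.12 at 50 µM (adjusted p = 7.31e-06) and 0.55 ± 0.12 at 75 µM (adjusted p = 0.000106). RPL3, which reaches towards the peptidyl transferase centre, had 2370, 2380 and 2220 CPM at 50 µM and 2350, 2280 and 2240 CPM at 75 µM, against 1890, 1830 and 1990 CPM in untreated cells. Its rise was smaller, 0.29 ± 0.08 (adjusted p = 0.00136) at 50 µM and 0.27 ± 0.08 (adjusted p = 0.00314) at 75 µM, with no overlap between groups. A correction for GC content ended the call of RPL3 at both doses.

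**Figure D2:**
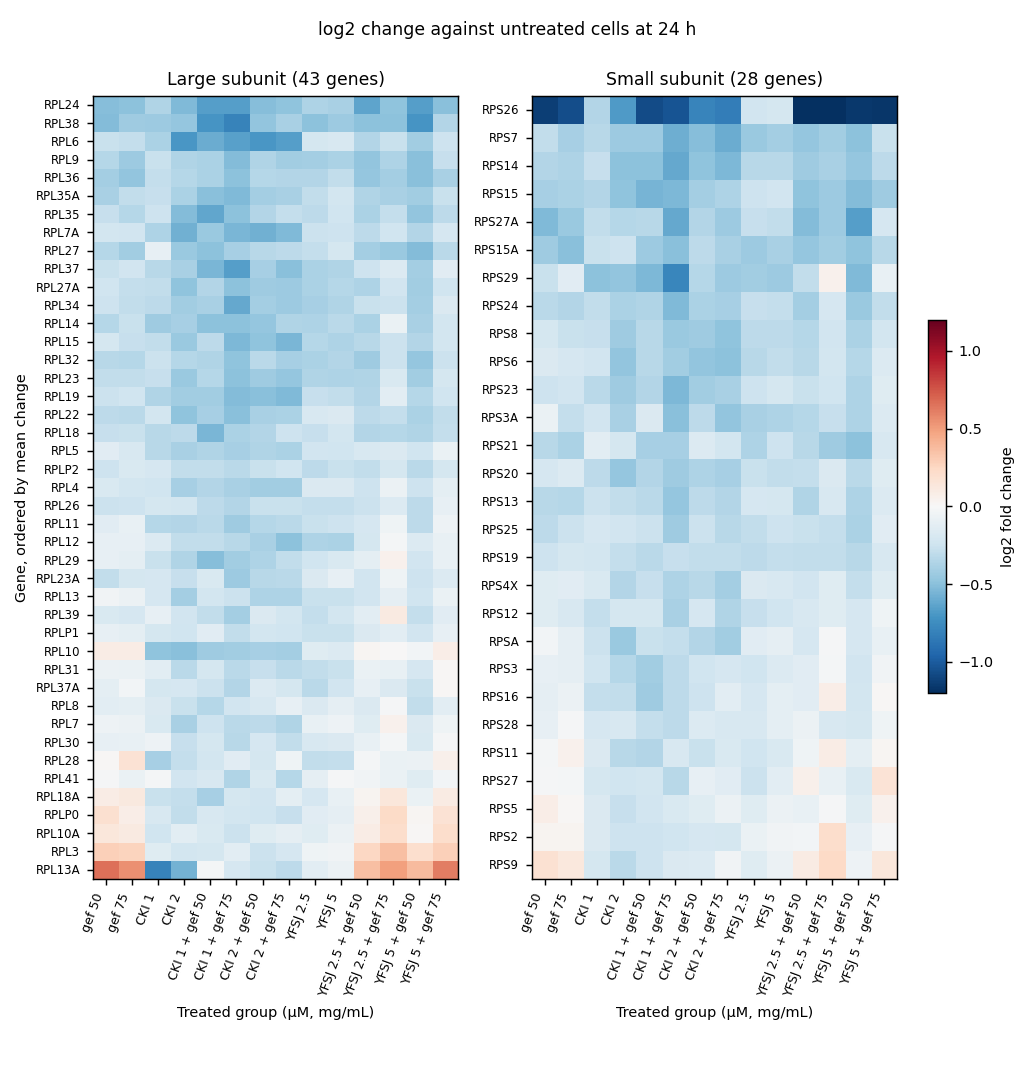
log2 change of the 71 ribosomal protein genes with over 200 counts in some library, for the 14 groups given an agent against untreated cells at 24 h (blue lower, red higher; genes are ordered by their mean change within each subunit). RPS26 is the lowest of these genes with gefitinib alone, at -1.13 and -1.06, and RPL13A is higher in gefitinib groups without CKI and lower with CKI alone.

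CKI alone was followed by lower levels of these genes, and every call was in that direction. At 1 mg/mL, 31 of 75 genes fell and 0 rose, with a median change of -0.27; of all genes 14.7% were called lower and 13.2% higher. DESeq2 also called 31 lower and 0 higher. At 2 mg/mL, 58 of 75 fell and 0 rose, with a median of -0.35, beside 27.1% of all genes lower and 24.1% higher, and DESeq2 called 57 lower and 0 higher. In 2 mg/mL against 1 mg/mL, 5 of 75 genes were called, all lower (RPL27, RPL6, RPL35, RPL22 and RPS6, between -0.34 and -0.24), while 32.7% of all genes were called in that comparison. Mitochondrial RNR2 took 0.483% to 0.625% of counts at 1 mg/mL and 0.919% to 1.16% at 2 mg/mL, against 0.464% to 0.582% in untreated cells at 24 h, and its part in the change was not tested. With scaling to library totals 15 genes fell at 1 mg/mL and 22 at 2 mg/mL, where this scaling moved the median of all genes to 0.18. The shares of all genes above are from the main fit, and those under this scaling are not given here. At 1 mg/mL 19 fell without untreated library 2 and 11 without CKI library 3.

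RPL6, a protein on the surface of the large subunit, had the largest fall at 2 mg/mL. It had 1120, 1100 and 1020 CPM at 1 mg/mL and 885, 888 and 821 CPM at 2 mg/mL, against 1400, 1380 and 1440 CPM in untreated cells. The 3 groups did not overlap, and the change was -0.38 ± 0.08 at 1 mg/mL (adjusted p = 0.000226) and -0.70 ± 0.08 at 2 mg/mL (adjusted p = 8.59e-10). RPS26 fell by 0.68 at 2 mg/mL (SE 0.15, adjusted p = 0.000272), with 241, 246 and 242 CPM against 357, 406 and 406 CPM in untreated cells. At 1 mg/mL its change was -0.35 (adjusted p = 0.0854). RPL7A (-0.58 ± 0.08), RPL24 (-0.53 ± 0.10) and RPL35 (-0.52 ± 0.11) also fell at 2 mg/mL.

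RPL13A, which rose with gefitinib, fell with CKI: 35.1, 33.8 and 29.5 CPM at 1 mg/mL and 43.7, 33.9 and 38 CPM at 2 mg/mL, against 54.5, 59.4 and 57.2 CPM in untreated cells. The change was -0.80 ± 0.12 at 1 mg/mL (adjusted p = 1.2e-06) and -0.57 ± 0.12 at 2 mg/mL (adjusted p = 0.000104). RPL10, which is needed for the last step of large-subunit maturation, had 1720, 1740 and 1590 CPM at 1 mg/mL and 1650, 1690 and 1650 CPM at 2 mg/mL, against 2320, 2270 and 2450 CPM in untreated cells. It fell by 0.48 (SE 0.08, adjusted p = 1.02e-05) and by 0.50 (SE 0.08, adjusted p = 1.79e-06) at these doses, and neither dose overlapped the untreated libraries. RPL36A, at 2.3 CPM against 4.06 CPM in untreated cells (-0.83 ± 0.27), RPL38 (-0.44 ± 0.13) and RPL14 (-0.43 ± 0.11) were the other leading falls at 1 mg/mL.

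YFSJ changed few genes of any kind, and the ribosomal protein genes called were all lower. At 2.5 mg/mL, 11 of 75 fell and 0 rose, with a median of -0.28, while 0.918% of all genes were called lower and 2.01% higher. At 5 mg/mL, 13 fell and 0 rose, with a median of -0.24, beside 2.2% and 4.28% of all genes. DESeq2 called 18 and 19 lower at these doses, and 0 higher. In 5 against 2.5 mg/mL, 0 of 75 were called, 0 had an unadjusted p under 0.05, and 0.374% of all genes were called. RPL38, a large-subunit protein needed in the mouse for translation of Hox mRNAs, led at both doses, with changes of -0.49 ± 0.13 (adjusted p = 0.0254) and -0.44 ± 0.13 (adjusted p = 0.0296), at 474 and 489 CPM against 665 CPM in untreated cells. RPS7 (-0.45 ± 0.10 and -0.41 ± 0.10), RPS15A (-0.44 ± 0.12 and -0.39 ± 0.12) and RPL9 (-0.41 ± 0.11 and -0.38 ± 0.11) followed at 2.5 and 5 mg/mL. RPS14, which helps shape the platform of the small subunit, fell by 0.33 at both doses (SE 0.09, adjusted p = 0.0244 and 0.0141).

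The YFSJ calls rested on small margins. Leaving out 1 library left 0 to 8 calls at 2.5 mg/mL and 1 to 7 at 5 mg/mL; the value was 0 without untreated library 2 or YFSJ library 3, 1 without untreated library 3, 2 without YFSJ library 1 and 4 without untreated library 1 at the lower dose. At the higher dose it was 3, 2 and 6 without untreated libraries 1, 2 and 3, and 1, 7 and 3 without YFSJ libraries 1, 2 and 3. All 3 libraries at 2.5 mg/mL held liver transcripts, and with a term for libraries with these transcripts 0 genes were called there. That term was estimated from other groups, those that held both kinds of library. The lack of calls therefore cannot show what part the liver transcripts had at 2.5 mg/mL. The changes at both YFSJ doses, at both CKI doses and at both gefitinib doses are all measured against the same 3 untreated libraries.

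The pairs could also be compared without the untreated libraries. When gefitinib was added to YFSJ, few ribosomal protein genes were called. For 50 and 75 µM gefitinib with 2.5 mg/mL YFSJ, 9 and 14 of 75 genes were called against that YFSJ dose alone, with medians of 0.00 and 0.11. For 5 mg/mL YFSJ, 9 and 9 were called, with medians of -0.08 and 0.10. Of all genes 53.9%, 51.5%, 52.9% and 51.4% were called in these 4 comparisons, in the same order. RPS26 fell in all 4, by 1.01, 1.07, 0.95 and 0.96 on the log2 scale, with adjusted p at most 1.71e-06. RPL13A rose in all 4, by 0.49, 0.62, 0.44 and 0.68, and RPL3 by 0.31, 0.41, 0.23 and 0.32, so these 3 genes moved as they did with gefitinib against untreated cells, while the median of the whole list was not below -0.08. For 2.5 mg/mL with 75 µM the 14 calls were 13 higher and 1 lower; without library 2 of that pair, which stood apart, they were 7 higher and 2 lower, with RPS26 at -0.94, RPL13A at 0.68 and RPL3 at 0.38.

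When YFSJ was added to gefitinib, no ribosomal protein gene was called in any of the 4 pairs. In the pair of 5 mg/mL YFSJ and 75 µM gefitinib against 75 µM gefitinib, 0 of 75 genes were called by edgeR and 0 by DESeq2, and 0 had an unadjusted p under 0.05; the median was 0.05, and 3.46% of all genes were called. In the other 3 pairs edgeR also called 0 of 75, with 4, 4 and 2 genes at an unadjusted p under 0.05 for 2.5 mg/mL with 50 µM, 5 mg/mL with 50 µM and 2.5 mg/mL with 75 µM, beside 0.0887%, 0.937% and 1.83% of all genes. The interaction of YFSJ and gefitinib is the log2 change in a pair less the summed log2 changes of its agents, averaged over all 4 pairs. It had a median of 0.22 over the 75 genes. It called 0 of 75, with 36 at an unadjusted p under 0.05, and 1.7% of all genes; without library 2 of 2.5 mg/mL with 75 µM it called 1, RPS15A (0.47 ± 0.13, adjusted p = 0.0471). Against untreated cells, 39, 28, 47 and 21 of 75 genes were lower in the pairs of 2.5 mg/mL with 50 and 75 µM and of 5 mg/mL with 50 and 75 µM, beside 27.8%, 26.5%, 26.6% and 26.1% of all genes.

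With CKI and gefitinib together, most of these genes were below their level in untreated cells. In the pair of 2 mg/mL CKI and 75 µM gefitinib against untreated cells, 54 of 75 fell and 0 rose, with a median of -0.36, beside 32.5% of all genes lower and 29.6% higher; DESeq2 called 53 lower and 0 higher. In the pairs of 1 mg/mL with 50 µM, 1 mg/mL with 75 µM and 2 mg/mL with 50 µM, 58, 64 and 54 fell, with medians of -0.34, -0.41 and -0.33, beside 27.8%, 30.4% and 30.4% of all genes. RPS26 (-0.83 ± 0.15, adjusted p = 1.18e-05), RPL36A (-0.71 ± 0.27, at 2.49 CPM against 4.06 CPM), RPL6 (-0.66 ± 0.08, adjusted p = 2.23e-09), RPS7 (-0.60 ± 0.11) and RPL15 (-0.55 ± 0.10) led the falls with 2 mg/mL and 75 µM. RPS14 fell by 0.54 (SE 0.09, adjusted p = 1.03e-06), to 974 ± 85.7 CPM, against 1410 ± 48.1 CPM in untreated cells. All 3 libraries of that pair held liver transcripts, and RNR2 took 1.39% to 1.56% of their counts, against 0.464% to 0.582% in untreated cells and 0.674% to 0.886% with 75 µM gefitinib alone. The part of RNR2 was not tested. A term for the libraries with liver transcripts, estimated from the groups that held both kinds of library, gave 39 genes lower, and scaling to library totals gave 29. The share of all genes is not given for either setting.

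Set against gefitinib alone, the CKI pairs had lower RPL13A, RPL10 and RPL3. With 2 mg/mL CKI added to 75 µM gefitinib, 22 of 75 genes fell, close to the 29.4% of all genes called lower, and 1, RPL17, rose, while 28.8% of all genes were called higher. In the other 3 pairs, of 1 mg/mL with 50 µM, 1 mg/mL with 75 µM and 2 mg/mL with 50 µM, 19, 28 and 22 genes fell, beside 16.2%, 17.3% and 27.1% of all genes. RPL13A fell most of the well-counted genes, to 51.2, 41.8 and 45 CPM with 2 mg/mL CKI and 75 µM gefitinib, against 88, 80.6 and 81.9 CPM with 75 µM gefitinib alone (-0.86 ± 0.12, adjusted p = 4.3e-08). RPL10 was at 1860, 1770 and 1680 CPM in the pair, against 2530, 2460 and 2510 CPM with gefitinib alone (-0.50 ± 0.08, adjusted p = 1.1e-06). RPL3 was at 1640, 1680 and 1640 CPM in the pair, against 2350, 2280 and 2240 CPM with gefitinib alone (-0.47 ± 0.08, adjusted p = 1.57e-06). For these 3 genes the groups did not overlap. RPL12 (-0.39 ± 0.12) and RPL6 (-0.37 ± 0.08) followed, and the low-count RPL17 rose by 0.92 (SE 0.30, adjusted p = 0.00832) at 1.85 CPM in the pair against 0.976 CPM with gefitinib alone. With a term for the libraries with liver transcripts 10 genes were lower; without library 1 of gefitinib 13 were lower, and without library 2 or 3 of the pair 12 or 11.

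When gefitinib was added to 2 mg/mL CKI, few of these genes were called. Against 2 mg/mL CKI alone, 1 of 75 was called with 50 µM gefitinib (RPL36A, a low-count gene, -0.85 ± 0.28) and 1 with 75 µM (RPS9, 0.28 ± 0.10), beside 11.1% and 30.1% of all genes. The medians were 0.02 and 0.01. Added to 1 mg/mL CKI, gefitinib changed 6 genes at 50 µM and 15 at 75 µM, beside 39% and 47.7% of all genes. RPS26 fell in both of these, by 0.72 and 0.69, and RPL13A rose in both, by 0.78 and 0.60.

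**Figure D3:**
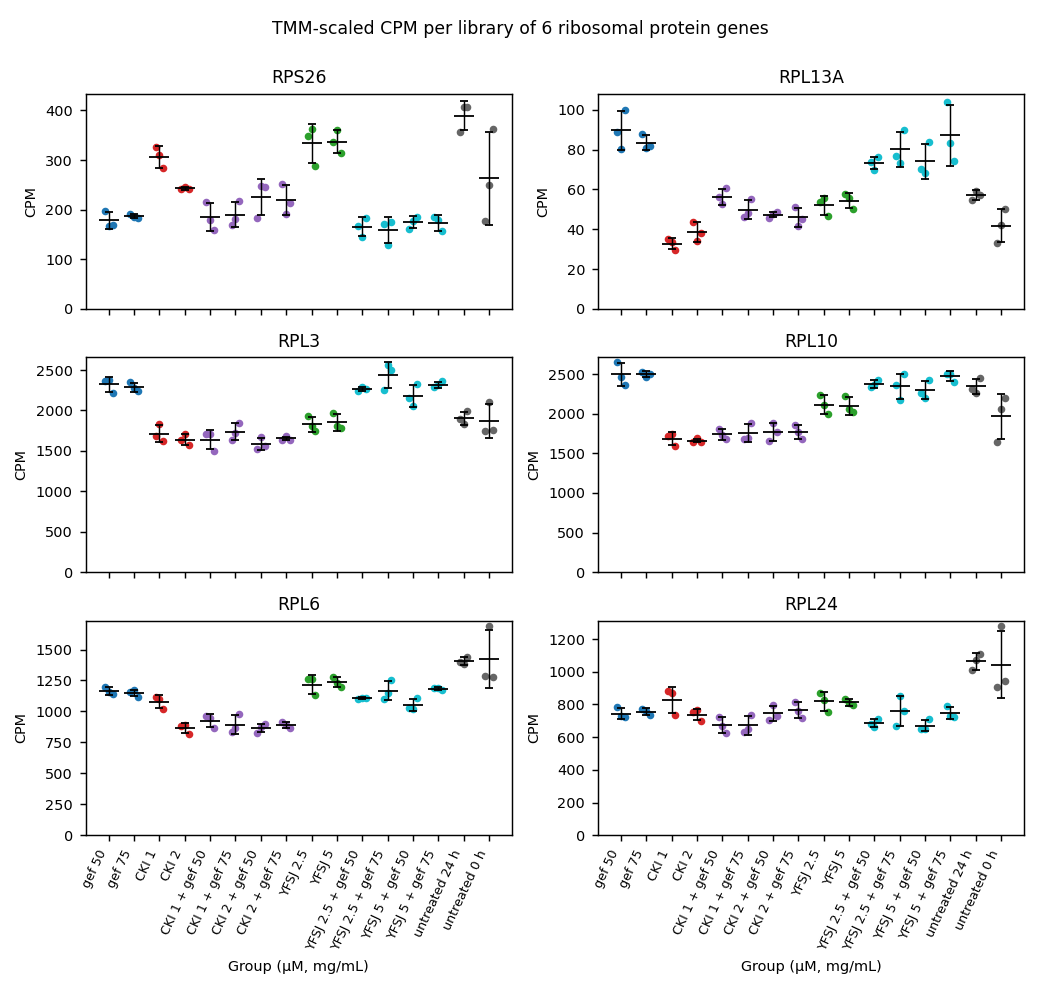
TMM-scaled CPM per library of RPS26, RPL13A, RPL3, RPL10, RPL6 and RPL24 in the 16 groups (points are libraries, the bar and whiskers the mean and SD of 3 libraries). RPL13A and RPL3 are high with gefitinib in the absence of CKI, and RPL10 in every group with CKI is below the untreated libraries at 24 h.

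The interaction of CKI and gefitinib was computed and tested in the same way. A positive value says that the pair was higher than the added log2 changes of its agents. It was positive and called in 9 of 75 genes and negative in 1, with a median of 0.17, while 20% of all genes were called positive and 19.5% negative. DESeq2 called 15 positive and 1 negative. RPS26 had the largest value of the well-counted genes, 0.68 ± 0.16 (adjusted p = 0.00075). Its means were 225 ± 36.1 and 219 ± 29.8 CPM with 2 mg/mL CKI and 50 or 75 µM gefitinib, 178 ± 17.1 and 187 ± 3.67 CPM with gefitinib alone, 243 ± 2.93 CPM with 2 mg/mL CKI alone and 390 ± 28.3 CPM in untreated cells. With 1 mg/mL CKI and 50 or 75 µM gefitinib RPS26 was at 186 ± 28.3 and 190 ± 25.2 CPM, about the level with gefitinib alone. It was at 306 ± 21.4 CPM with 1 mg/mL CKI alone. RPL24 (0.37 ± 0.10, adjusted p = 0.00315), RPL36 (0.37 ± 0.13), RPS27A (0.37 ± 0.15) and RPS15, a protein near the decoding site (0.34 ± 0.10, adjusted p = 0.00678), were also positive. So were RPL38 (0.34 ± 0.14), RPL9 (0.28 ± 0.11), RPS13 (0.26 ± 0.10) and the low-count RPL17 (1.11 ± 0.32).

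RPL3 was the gene with a negative interaction, -0.30 ± 0.08 (adjusted p = 0.00308). It had 1580 ± 75.9 and 1650 ± 20.5 CPM with 2 mg/mL CKI and 50 or 75 µM gefitinib, 2330 ± 91.1 and 2290 ± 55.2 CPM with gefitinib alone, 1640 ± 68.2 CPM with 2 mg/mL CKI alone and 1900 ± 81.3 CPM in untreated cells. The CKI groups with and without gefitinib were thus at about the same level, below both gefitinib groups. RPL13A, which rose with gefitinib and fell with CKI, had an interaction of -0.12 (adjusted p = 0.491). The number of positive calls was 5 without untreated library 3, without CKI library 2 or 3 of 1 mg/mL, without library 2 of 2 mg/mL, and without library 3 of 1 mg/mL with 75 µM. It was 14 without library 1 of 2 mg/mL and 17 without library 3 of 1 mg/mL with 50 µM.

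**Figure D4:**
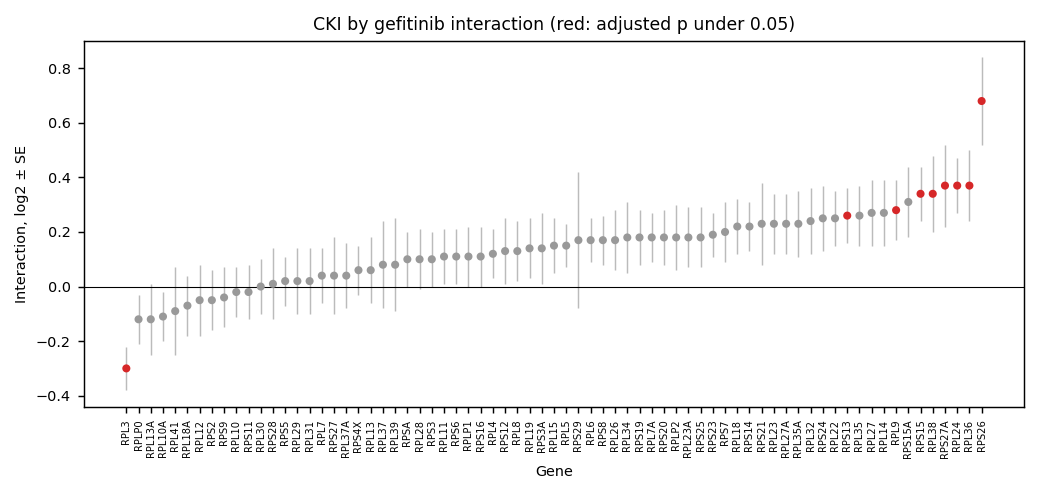
Interaction of CKI and gefitinib on the log2 scale for the 71 ribosomal protein genes with over 200 counts in some library (points are estimates, whiskers the SE, red points have an adjusted p under 0.05). RPS26 stands highest at 0.68 and RPL3 lowest at -0.30.

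The stalk and the 5S ribonucleoprotein were read by role. Of the stalk proteins, RPLP0 had 0.08 ± 0.09, RPLP1 -0.12 ± 0.10 and RPLP2 -0.18 ± 0.12 at 75 µM gefitinib, and edgeR called 0 of the 3 at either dose. With 1 mg/mL CKI 0 of the 3 were called as well, with changes of -0.21 to -0.19, and with 2 mg/mL CKI RPLP0 (-0.30 ± 0.09, adjusted p = 0.0041) and RPLP2 (-0.30 ± 0.12, adjusted p = 0.0332) fell. RPL5 and RPL11, which carry the 5S RNA and also bind the p53 regulator MDM2, fell at both CKI doses, RPL5 by 0.33 and 0.39 and RPL11 by 0.34 and 0.35 at 1 and 2 mg/mL (adjusted p at most 0.00564). At 75 µM gefitinib RPL5 fell by 0.19 (SE 0.07, adjusted p = 0.0312), a call that a correction for GC content reversed in sign to 0.08, and RPL11 had -0.09 ± 0.10.

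RPS6, the substrate of S6 kinase downstream of mTORC1, fell at both doses of CKI and of YFSJ. It had a change of -0.23 ± 0.09 with 1 mg/mL CKI, -0.47 ± 0.09 with 2 mg/mL CKI (adjusted p = 2.45e-05), and -0.33 ± 0.09 and -0.30 ± 0.09 with 2.5 and 5 mg/mL YFSJ. With 50 and 75 µM gefitinib it had -0.17 (adjusted p = 0.106) and -0.20 (adjusted p = 0.0564), values whose difference from those with CKI or YFSJ was not tested. RPSA, a small-subunit protein also known as a laminin receptor, fell with 1 and 2 mg/mL CKI (-0.26 ± 0.09 and -0.45 ± 0.09), and RPL22 fell with both gefitinib doses (-0.31 ± 0.10 and -0.32 ± 0.10) and with 2 mg/mL CKI (-0.48 ± 0.10). RPS28, a neighbour of RPS26 at the mRNA exit channel, was called in none of the 6 single-agent groups, with changes between -0.20 and -0.01. Of 18 genes mutated in Diamond-Blackfan anaemia, an inherited failure of red cell production, 10 fell with 75 µM gefitinib and 12 with 2 mg/mL CKI, beside 45.3% and 77.3% of all the ribosomal protein genes tested.

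Calls fell in both subunits. For comparison with the counts below, 27.1% of all genes were called lower with 75 µM gefitinib and 27.1% with 2 mg/mL CKI. With 75 µM gefitinib 21 of 45 large and 13 of 30 small subunit genes fell, with medians of -0.22 and -0.20, and with 2 mg/mL CKI 37 of 45 and 21 of 30 fell, with medians of -0.36 and -0.34. Other features were read over the 71 genes with over 200 counts in some library, as a description without a test. A small nucleolar RNA gene lies within the span of 26 of them, on the same strand. With 75 µM gefitinib 9 of the 26 fell and 2 rose, RPL13A and RPL3, whereas 25 of the 45 without fell and 0 rose. Among all genes 27.1% were called lower there and 27.6% higher. With 2 mg/mL CKI added to 75 µM gefitinib, 13 of the 26 and 9 of the 45 fell, beside 29.4% of all genes called lower. In that comparison 21 of the 37 genes with the longer coding sequences fell, against 1 of the 34 with the shorter, and the change had a Spearman correlation of -0.44 with coding length over the 71 genes, which share their libraries. Genes with a start in the annotation were read by the pyrimidine run that begins with C at that start. With 75 µM gefitinib 20 of 42 with a run of at least 5 and 10 of 15 with a shorter one or none fell. With 2 mg/mL CKI the counts were 33 of 42 and 12 of 15. A run that begins after the annotated start was not counted.

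Ribosome synthesis also needs the machinery that makes and processes ribosomal RNA. Of 49 genes of ribosomal RNA processing, 48 fell with 50 µM gefitinib and 48 with 75 µM, with medians of -0.88 and -0.84, beside -0.21 for the ribosomal protein genes. Among all genes 26.8% and 27.1% were called lower at these doses. LYAR, a nucleolar protein of processing, was at 21.8 ± 0.781 CPM with 75 µM, against 71.4 ± 4.56 CPM in untreated cells (-1.71 ± 0.10, adjusted p = 7.98e-20). NOP56, a core protein of the box C/D particles that methylate ribosomal RNA, was at 211 ± 7.98 CPM against 418 ± 13.7 CPM in untreated cells (-0.99 ± 0.07). With 2 mg/mL CKI 24 of the 49 fell and 2 rose, with a median of -0.25, NOP56 at 281 ± 23.3 CPM among the falls, while LYAR had 71.5 ± 6.46 CPM. The shares of all genes with 2 mg/mL CKI were 27.1% lower and 24.1% higher. With 5 mg/mL YFSJ 1 of 49 rose and 0 fell, beside 4.28% and 2.2% of all genes. In 2 mg/mL CKI with 75 µM gefitinib against 75 µM gefitinib, 34 rose and 1 fell, with LYAR at 69.6 CPM in the pair against 21.8 CPM with gefitinib alone (1.68 ± 0.09). In this comparison 28.8% of all genes were called higher and 29.4% lower. There the ribosomal protein genes had a median of -0.16 and these 49 genes a median of 0.43. In the interaction of CKI and gefitinib 44 of 49 were positive and 0 negative, beside 20% and 19.5% of all genes.

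Genes of RNA polymerase I, which transcribes the large ribosomal RNA, were lower in 9 of 13 and higher in 1 with 75 µM gefitinib; CD3EAP fell by 1.51 (SE 0.20, adjusted p = 1.55e-08) and POLR1C by 0.64 (SE 0.08). In the pair of 2 mg/mL CKI and 75 µM gefitinib against that gefitinib dose 8 were higher and 2 lower, TAF1A at 1.28 ± 0.16. Of 12 genes of subunit assembly and export, 10 fell with 75 µM gefitinib, BCCIP by 1.28 (SE 0.09) and RIOK1, an ATPase of late small-subunit maturation, by 0.91 (SE 0.10), and 8 were higher in the CKI pair against gefitinib. The 77 tested genes for mitochondrial ribosomal proteins fell in 68 cases with 75 µM gefitinib and in 62 with 2 mg/mL CKI, with medians of -0.52 and -0.42. MRPL18 was at 57.3 ± 1.98 CPM with 75 µM gefitinib, against 124 ± 11.3 CPM in untreated cells. For these lists, the shares of all genes were 27.1% lower and 27.6% higher with 75 µM gefitinib, and 27.1% lower with 2 mg/mL CKI. In the CKI pair against gefitinib they were 28.8% higher and 29.4% lower.

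Translation factors known for TOP mRNAs were a further list. A tract was found in 9 of the 10 of them with an annotated start, in 6 of 40 processing genes and in 6 of 69 mitochondrial ribosomal protein genes. Of 16 such factors, 4 rose and 4 fell with 75 µM gefitinib, 0 rose and 9 fell with 2 mg/mL CKI, and 0 rose and 3 fell with 5 mg/mL YFSJ. With 75 µM gefitinib these counts are near the shares of all genes, 27.6% higher and 27.1% lower. The shares were 24.1% higher and 27.1% lower with 2 mg/mL CKI, and 4.28% and 2.2% with 5 mg/mL YFSJ. EIF4B, a cofactor of the helicase that unwinds mRNA, was at 389 CPM with 2 mg/mL CKI and 75 µM gefitinib, against 535 CPM with gefitinib alone (-0.46 ± 0.08). EEF1A1, which brings aminoacyl-tRNA to the ribosome, was at 3100 CPM in that pair against 5300 CPM with gefitinib alone (-0.77 ± 0.10, adjusted p = 3.28e-09). Of 10 genes that control these mRNAs, 3 rose and 2 fell with 75 µM gefitinib, also near the shares of all genes at that dose. DEPTOR, an inhibitor within mTOR complexes, was lower in the CKI pair than with gefitinib alone (-1.44 ± 0.12). Of the ribosomal proteins with other names FAU fell with 75 µM gefitinib (-0.56 ± 0.10) and RACK1 had -0.05 ± 0.09 there. Of 7 paralogs 5 fell and 1, the p53 target RPS27L (0.35 ± 0.12), rose.

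**Figure D5:**
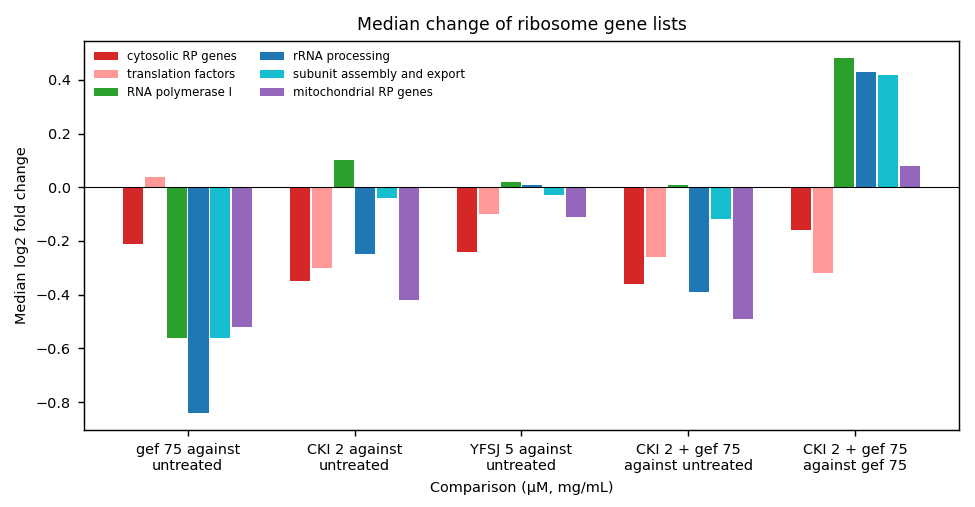
Median log2 change of 6 gene lists in 5 comparisons (bars start at 0, and lists are not tested). The ribosomal RNA processing genes are at -0.84 with 75 µM gefitinib and at 0.43 when 2 mg/mL CKI is added to it, while the ribosomal protein genes are at -0.21 and -0.16.

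Processed copies listed in the table were read beside their parent genes, and those named here were chosen after their values were seen. RPLP0P2, a copy of RPLP0, was at 26.1 CPM with 2 mg/mL CKI and 13.5 CPM with 75 µM gefitinib, against 2.37 CPM in untreated cells, with log2 changes of 3.48 ± 0.18 and 2.53 ± 0.19. RPLP0 itself was at 1680 ± 53.8 CPM with 2 mg/mL CKI and 2190 ± 95.4 CPM with 75 µM gefitinib, against 2070 ± 84.1 CPM in untreated cells. RPSAP58, a copy of RPSA, changed by -0.43 ± 0.09 with 2 mg/mL CKI, beside -0.45 ± 0.09 for RPSA. RPL13AP20, a copy of RPL13A with 18 to 64 counts per library, had 0.59 ± 0.26 (not called) with 50 µM gefitinib. With 75 µM it rose by 0.82 (SE 0.26, edgeR adjusted p = 0.0071), in the direction of RPL13A. With 1 and 2 mg/mL CKI, where RPL13A fell, the copy had 0.64 ± 0.26 and 0.01 ± 0.27, neither called. The part of shared reads in the changes of RPL13A was not tested. The readthrough transcripts that join RPL17, RPS10 and RPL36A to their neighbours had 0 counts in every library. The table does not say how reads shared between a gene, a readthrough transcript and a copy were assigned, and the part of this in the low counts of RPL17, RPS10 and RPL36A was not tested.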

How the data were processed

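The deposited table holds raw read counts per gene symbol; per the submitters' processing notes Trim Galore 0.4.2, STAR 2.5.3a and edgeR were used with build hg19. The counting tool and its strand setting are not given in the sources used here, and per the labels the libraries were unstranded and paired-end. All 48 columns were mapped to samples. No replicate pair was identical (chi-square per gene 3.71 to 68.5).

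In R 4.3.3, edgeR 4.0.16 was used with TMM factors, filterByExpr (minimum count 10, minimum total 15), robust quasi-likelihood fits in which each group had its own mean (32 residual degrees of freedom, biological coefficient of variation 0.102) and Benjamini-Hochberg adjustment over all genes tested. The SE is the log2 change divided by the square root of F. CPM values are TMM-scaled. Alternatives were DESeq2 1.42.0, other scalings, corrections for GC content and transcript length (96.2% of genes had both values), a replicate block, and left-out libraries.

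Named genes are the 5 largest rises and falls called per comparison, 10 genes by role, and 2 per direction from each other list. Of these, those that the text needs are given. Some further results outside this rule were added, such as RPS14 with YFSJ and RPL35 and RPL10 with 2 mg/mL CKI. The members and lists were chosen with earlier results of these data known. Some items are not reported here.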

Additional observations from a re-analysis of the deposited data

Results flagged for a closer look

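For 10 of 75 ribosomal protein genes (13.3%) the change with CKI and gefitinib together differed from the sum of the changes with each agent. This was by edgeR's test of the interaction over 15789 genes, of which 20% were called positive and 19.5% negative. A call was thus less common among the ribosomal protein genes than among all genes. The interaction on the log2 scale was 0.68 for RPS26 (adjusted p = 0.00075), 0.37 for RPL24 (0.00315), 0.37 for RPL36 (0.0184) and 0.37 for RPS27A (0.0394). It was 0.34 for RPS15 (0.00678), 0.34 for RPL38 (0.0458), 0.28 for RPL9 (0.0444), 0.26 for RPS13 (0.0476) and 1.11 for RPL17 (0.00498), which had 6 to 46 counts per library. RPL3 had the lone negative value, -0.30 (0.00308). Each value is a mean over the 4 dose pairs and uses the same 3 untreated libraries at 24 h.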

How the results depend on the processing

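All counts are ribosomal protein genes called in the main direction of each comparison. The shares of all genes called under these settings are not given here. With scaling to library totals the counts were 13 lower for 50 µM gefitinib, 14 for 75 µM, 15 and 22 for 1 and 2 mg/mL CKI, 29 for 2 mg/mL CKI with 75 µM gefitinib against untreated cells, and 5 for the CKI interaction. Without the filter on low counts they were 20 for 1 mg/mL CKI, 6 and 7 for 2.5 and 5 mg/mL YFSJ and 5 for the interaction. At an adjusted p under 0.01 they were 14 for 24 h against 0 h, 20 and 17 for gefitinib, 14 for 1 mg/mL CKI, 1 and 0 for YFSJ, 10 for the CKI pair against 75 µM gefitinib and 4 for the interaction. GC correction gave 19 for 2.5 mg/mL YFSJ and 15 for the interaction, and DESeq2 gave 18 and 15 for these. In fits of the compared libraries alone the counts were 0 for 24 h against 0 h, 17 for 2.5 mg/mL YFSJ and 15 for the interaction. For 24 h against 0 h, transcript length correction gave 17, and library 3 as the lone 0 h library gave 0, with that library assumed to vary like the other groups. A term for the libraries with liver transcripts gave 0 for 2.5 mg/mL YFSJ, 10 for the CKI pair against gefitinib and 4 for the interaction. Library 2 of 2 mg/mL CKI with 50 µM gefitinib, the lone library of 2 mg/mL CKI with gefitinib that lacked these transcripts, tried after seeing the data, gave 26 lower against untreated cells; it is 1 library of another gefitinib dose than the pair with 75 µM, assumed to vary like the other groups, and does not check that pair. Without library 2 of 75 µM gefitinib paired with 2.5 mg/mL YFSJ, likewise chosen after seeing the data, 30 were lower against untreated cells, 0 were called against gefitinib, 7 were higher against YFSJ, and 1 was called in the YFSJ interaction. The cause was not tested.

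Leaving out 1 library gave 1 to 34 for 24 h against 0 h, 21 to 30 and 19 to 31 for 50 and 75 µM gefitinib, 11 to 33 and 45 to 58 for 1 and 2 mg/mL CKI, 0 to 8 and 1 to 7 for YFSJ, 45 to 53 for the CKI pair against untreated cells, 11 to 21 for it against gefitinib, and 5 to 17 for the interaction. With the replicate number as a block the counts were 25 for 24 h against 0 h, 32 and 33 for gefitinib, 29 and 58 for CKI, 11 and 9 for YFSJ, 53 and 22 for the CKI pair against untreated cells and against gefitinib, 0 for 5 mg/mL YFSJ with 75 µM gefitinib against gefitinib, and 7 for the interaction; same-numbered libraries shared only a number (correlations of their deviations between -0.35 and 0.27). Of 120 values for single genes, 1 turned its direction: RPL5 with 75 µM gefitinib had 0.08 under GC correction. The call was lost in 24 of 120 under scaling to library totals, 15 without the filter, 12 under GC correction, 12 under length correction, 12 in fits of the compared libraries alone, 7 with relative log expression factors, 5 with the replicate block, 2 with DESeq2 and 1 with factors from other genes. It was lost in 19 of 46 with the liver term, in 9 of 9 with library 3 as the lone 0 h library, and in 147 of 909 fits without 1 library. Apart from those last, 65 of 120 kept direction and call under every setting.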
